A study of Mus musculus with 21 samples.

Results

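The epithelial junction and keratin genes described here are 38 mouse genes, taken by symbol from count tables that list 48321 symbols each. They comprise the adhesion protein gene Epcam, 9 claudins, 7 further tight junction genes, 6 desmosome genes, 4 keratins, 4 regulators of splicing and transcription, 4 genes of polarity and trafficking, and 3 genes of a membrane protease and its inhibitors. Their list is one of symbols, with no threshold on a measured value. It was chosen with earlier results of these data known, so the shares of members that passed are descriptive. Each of the 38 symbols was found in all 21 tables, and 37 genes passed the filter on low counts, among 14311 genes tested. The one that did not pass was Cldn2, a claudin that forms cation pores in the kidney and gut, with 0 to 5 counts per sample. Values are given as counts per 1000000 counts of the library (CPM), adjusted by TMM factors, as mean ± SD over the 3 samples of a group unless each sample is listed. A gene is said to pass, to rise or to fall when its adjusted p was under 0.05 in the quasi-likelihood test of edgeR, and the error of a log2 fold change is its standard error (SE).

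Epithelial cells hold to each other through stacked junctions. Tight junctions seal the space between cells with membrane proteins of the claudin family, occludin and its relatives, tied inside the cell to scaffold proteins such as ZO-1. Desmosomes rivet neighbouring cells together and anchor the keratin filaments, of which Krt8 with Krt18 is the earliest pair in the embryo. Mouse embryonic stem cells already carry Epcam and E-cadherin, and lose part of this equipment where cells leave the epithelial state in an epithelial-mesenchymal transition (EMT). TWIST1, a transcription factor of the basic helix-loop-helix family, is known for its part in EMT. Its DNA-binding form is a pair, made of 2 TWIST1 proteins or of TWIST1 and an E-protein (TCF3, TCF4, TCF12).

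RNA was sequenced from embryoid bodies, aggregates of differentiating stem cells, on day 3 of differentiation. All came from A2loxCre, a mouse embryonic stem cell line (strain C57BL/6 in the labels) in which a transgene can be placed behind a doxycycline-inducible promoter. The 7 groups of 3 samples were the parental A2loxCre line with doxycycline, the line with an integrated Twist1 monomer without and with doxycycline, and doxycycline-treated lines with an integrated Twist1 homodimer, Twist1-Tcf3 dimer, Twist1-Tcf4 dimer or Twist1-Tcf12 dimer. Induction lasted 16 h in the 6 treated groups. All groups share the parental background, and the labels name 1 line per construct. The labels do not say whether the 3 samples of a group came from separate cultures, so p-values measure the spread between these samples, which may be technical. In bulk RNA of whole embryoid bodies, fewer cells of a type and less RNA per cell cannot be told apart.

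Total counts ran from 6648842 to 15999693 per sample. Twist1 stood at 8.11 ± 0.79 CPM in parental samples, 5.07 ± 0.63 in the monomer line without doxycycline (called the uninduced line), 613 ± 31.6 in the monomer line and 182 ± 16.6 in the homodimer line. The heterodimer groups lay at 55.2 ± 2.44, 39.4 ± 2.93 and 42.3 ± 5.26 CPM (TCF3, TCF4 and TCF12). Tcf4 was at 330.4 ± 22.6 CPM in the TCF4 dimer line (called the TCF4 line) against 47.5 ± 7.26 in the parental line. Tcf3 was no higher under its label (154 ± 4.53 CPM against 167 ± 5.92), and Tcf12 under its label (93.1 ± 34.8 CPM) overlapped the parental samples (66.1 ± 3.03). These groups are therefore called the TCF3-labelled and TCF12-labelled libraries. Sample 1 of the TCF12-labelled libraries stood apart from samples 2 and 3. Its TMM factor was 0.865, and across 13880 genes its deviation from the mean of samples 2 and 3 fell with exon length (rho -0.576). The 18 samples outside this group, each set against the other samples of its own group, had a rho of -0.26 to 0.281. Member counts are therefore also given from a fit of the other 20 samples, in which the typical coefficient of variation between replicates dropped from 0.12 to 0.0539.

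Of the 37 tested junction and keratin genes, 34 passed a test for any difference among the 7 groups, where 50.7% of all tested genes passed. Lower expression was most frequent in the TCF3-labelled and TCF12-labelled libraries. Against the parental line, 17 members fell and 3 rose in the TCF3-labelled libraries, where 12% of all genes fell and 16.3% rose. In the TCF12-labelled libraries, 20 members fell and 3 rose, beside 11.5% and 15.5% of all genes. This count was 3 lower and 1 higher in a fit of these libraries and the parental ones alone, where 5.68% of all genes passed in either direction. The TCF4 dimer line, with a rise of 4 members and a fall of 4 (7.18% and 5.67% of all genes), was evenly split against this control. Against the uninduced line it had 12 lower and 5 higher (15.5% and 16.8% of all genes). The homodimer line likewise had 4 higher and 4 lower against the parental line (4.81% and 4.02%), and 10 lower and 4 higher against the uninduced line (11.6% and 11.2%). The monomer line had 5 higher and 4 lower (10.8% and 9.22%), and the same line without doxycycline already had 7 higher and 4 lower (10.5% and 9.43%). Both directions together, 28.3%, 27%, 12.9%, 8.84%, 20% and 19.9% of all genes passed in the 6 comparisons with the parental line, in the order given.

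The 37 members together had a median log2 difference from the parental line of -0.36 in the TCF3-labelled libraries and -0.37 in the TCF12-labelled ones, while the median over all genes was 0.01 and 0.02. In the TCF4 line the members' median was -0.05, in the homodimer line 0.06, in the monomer line 0.10 and without doxycycline 0.23. Summed over the 38 genes, the parental samples held 2215 ± 46.9 CPM, the TCF3-labelled libraries 1902 ± 100.0 and the TCF12-labelled ones 1807 ± 60.6. The TCF4 dimer line held 2106 ± 19.4 CPM and the uninduced line 2441 ± 37.9. All of these comparisons share the 3 parental samples, so their differences are not independent of one another.

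The fit of 20 samples called a larger share of all genes in each of these 6 comparisons. It gave 24 members lower and 7 higher in the TCF3-labelled libraries (22.5% and 24.2% of all genes), and 23 lower and 2 higher in samples 2 and 3 of the TCF12-labelled libraries (14.7% and 15.8%). The TCF4 dimer line then had 13 lower and 7 higher (13.6% and 14.6%), and the homodimer line 6 lower and 8 higher (9.87% and 10.6%). The monomer line had 5 lower and 12 higher (17.1% and 18.2%), and the uninduced line 8 lower and 16 higher (18.2% and 18.9%). Leaving out other single samples lowered 3 counts by more than 1.5 times. The uninduced line had 4 to 6 passing members without any 1 of the 6 samples compared. The homodimer line had 5, 4 and 5 without parental sample 3, homodimer sample 1 and homodimer sample 2, and the TCF4 line 4, 5 and 5 without parental sample 1, TCF4 dimer sample 1 and TCF4 dimer sample 3. Leaving out any other sample gave between 16 and 23 passing members for the TCF3-labelled libraries and between 18 and 24 for the TCF12-labelled ones. The shares of all genes in these fits without other single samples are not given here.

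**Figure D1:**
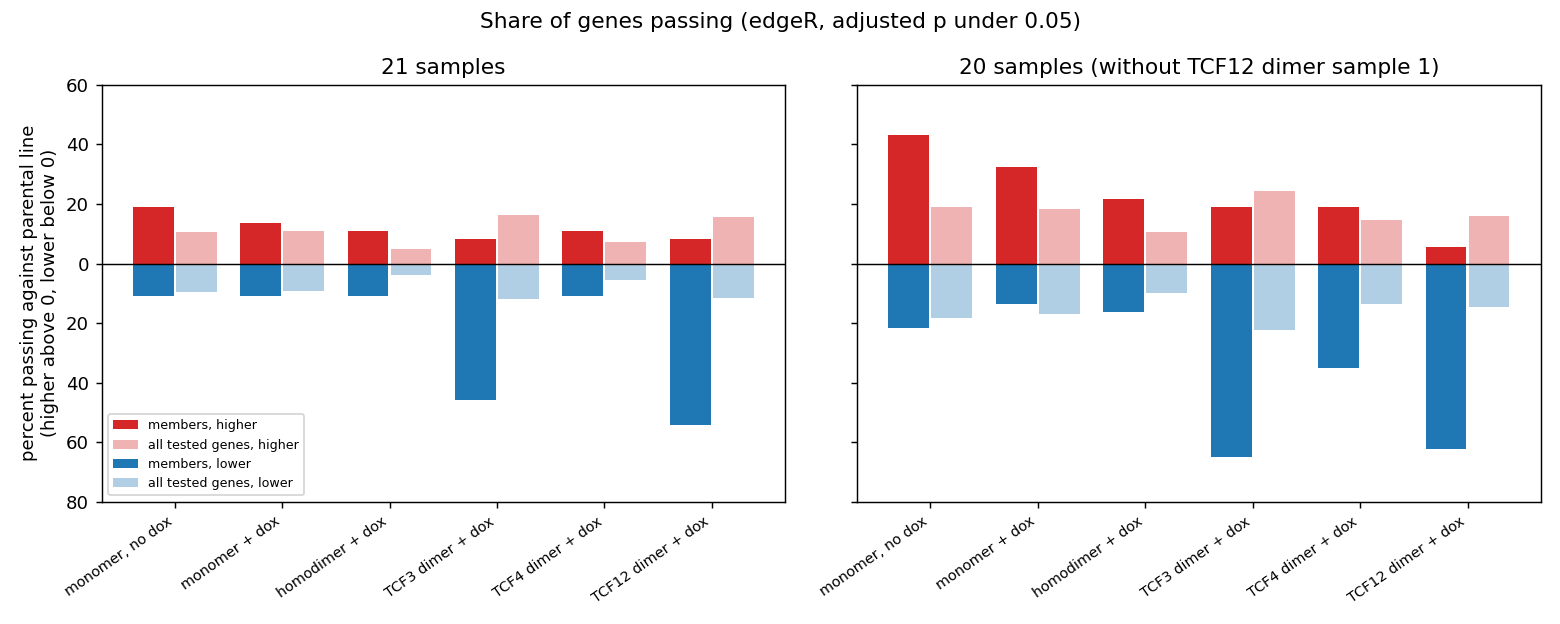
Percent of the 37 tested members (dark bars) and of all 14311 tested genes (pale bars) that passed against the parental line, higher above 0 and lower below 0, from the fit of all 21 samples (left) and of 20 samples (right). In the left panel the members' lower share reaches 45.9% and 54.1% in the TCF3-labelled and TCF12-labelled libraries, and is 10.8% in the TCF4 dimer, homodimer, monomer and uninduced monomer groups.

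**Figure D2:**
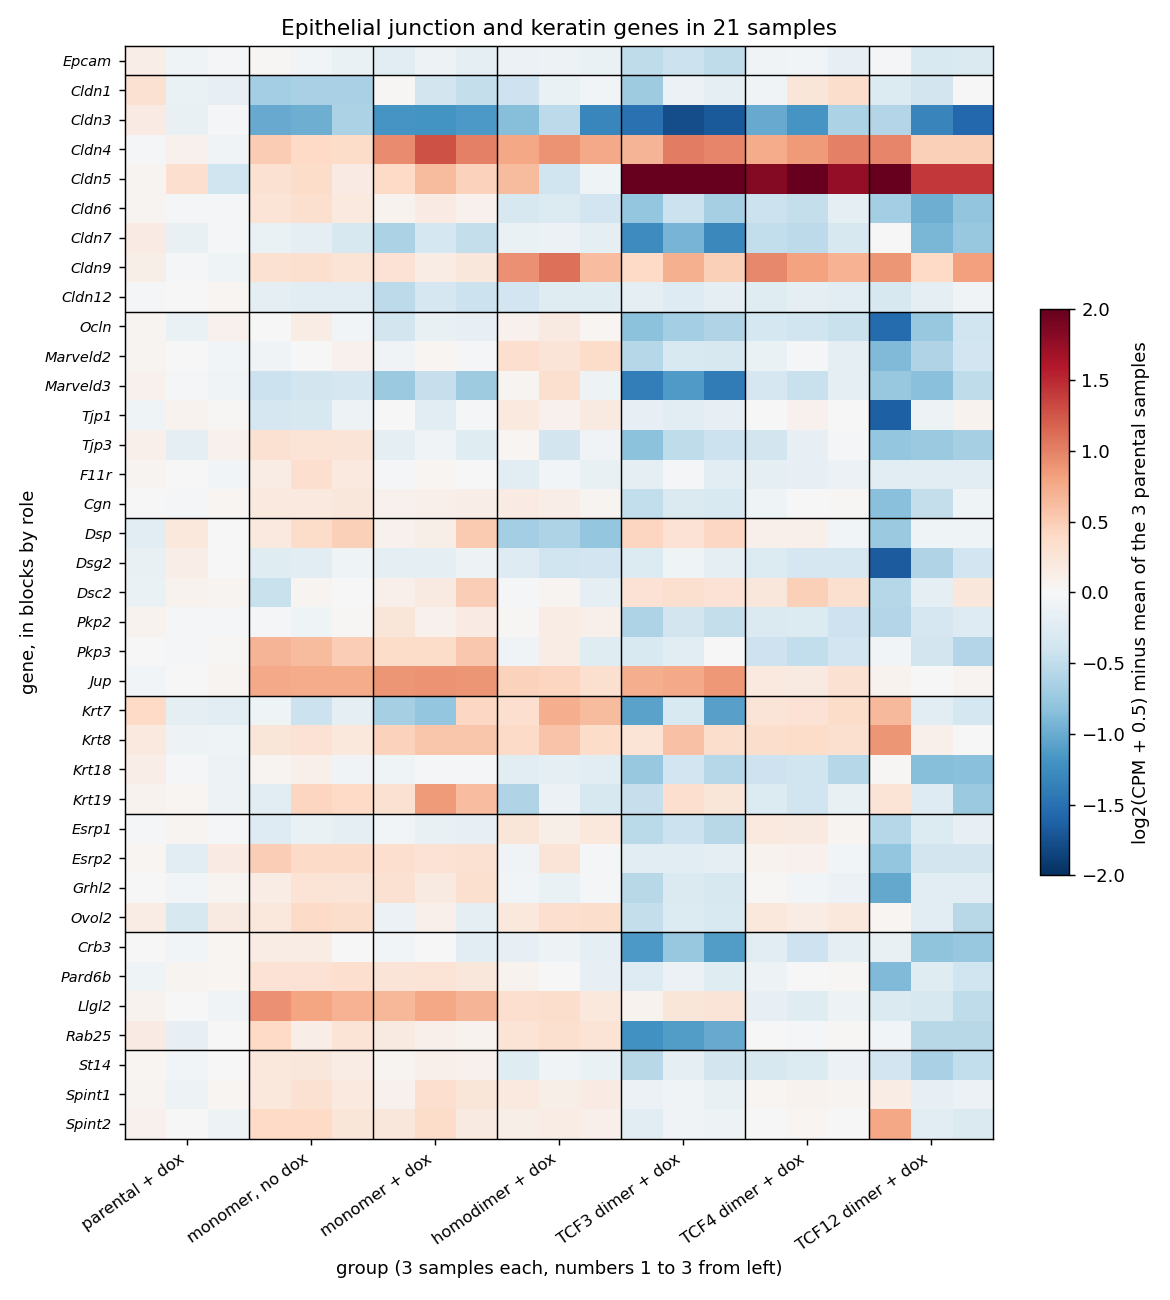
Each row is 1 of the 37 tested genes and each column 1 of the 21 samples. Colour gives log2(CPM + 0.5) minus the mean of the parental samples, with the scale ending at 2 in either direction. Cldn5 is red across the 9 heterodimer samples, Cldn3 is blue in every group but the parental one, and sample 1 of the TCF12-labelled libraries differs from samples 2 and 3 in many rows.

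Per kilobase of exon, the parental line expressed Cldn6 (142 ± 5.31 RPKM, the CPM divided by exon length in kilobases) and Epcam (124 ± 9.81) most. Krt18 (40.1 ± 3.61), Krt8 (38.7 ± 4.64), F11r (37.9 ± 1.64) and Cldn7 (35.8 ± 3.94) came next, and these 4 do not differ from one another beyond their spread. At the low end stood Cldn5 (0.981 ± 0.33 RPKM), Cldn1 (0.608 ± 0.137), Cldn9 (0.393 ± 0.0539), Krt7 (0.332 ± 0.101) and Cldn2 (0.0428 ± 0.0197). The claudins thus spanned the whole order, from Cldn6 at its top to Cldn2 at its end. This order depends on the exon length used, which merges all annotated transcripts of a gene. By CPM alone, Krt7 (2.34 ± 0.71) stood above Cldn5 (1.39 ± 0.47) in parental samples.

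Cldn3 and Cldn4, sealing claudins of many epithelia, lie 39.3 kb apart on chromosome 5 (GRCm38, GENCODE M21: Cldn3 134986214 to 134987472 on the plus strand, Cldn4 134945119 to 134946934 on the minus strand), with no protein-coding gene between them. Cldn3 stood at 6.87, 5.42 and 5.95 CPM in parental samples 1 to 3, at 2.77, 2.82 and 3.71 in the uninduced line and at 2.39, 2.36 and 2.47 in the monomer line. It was at 3.13, 4.04 and 2.16 CPM in the homodimer line, 2.75, 2.40 and 3.71 in the TCF4 line, 1.82, 1.41 and 1.55 in the TCF3-labelled libraries and 3.88, 2.13 and 1.70 in the TCF12-labelled ones. No parental sample overlapped any other group. Cldn3 fell in all 6 comparisons with the parental line, by 1.92 ± 0.27 (log2 ± SE, edgeR adjusted p 1.87e-05) in the TCF3-labelled libraries. The log2 fold change was -1.33 ± 0.26 in the monomer line, -1.28 ± 0.25 in the TCF12-labelled libraries, -1.02 ± 0.24 in the TCF4 line, -0.95 ± 0.25 in the homodimer line and -0.95 ± 0.25 in the uninduced line. With the uninduced line as the control, the homodimer line differed by 0.00 (adjusted p 0.997) and the TCF4 line by -0.07 (adjusted p 0.878). The libraries labelled TCF3 dimer were still lower on that comparison, by -0.97 ± 0.30 (adjusted p 0.0178). The fall in the homodimer line did not pass without parental sample 1 (adjusted p 0.0805), homodimer sample 1 (0.0538) or homodimer sample 3 (0.101), nor that in the uninduced line without parental sample 1 (0.0501) or its own sample 2 (0.0577).

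Its neighbour Cldn4 went the other way. It was at 22.8, 24.5 and 22.0 CPM in parental samples, 32.9, 30.7 and 29.9 in the uninduced line and 45.1, 56.4 and 46.9 in the monomer line. The homodimer line had 39.8, 43.6 and 39.5 CPM, the TCF4 line 39.0, 41.8 and 46.7, the TCF3-labelled libraries 37.2, 47.4 and 46.0, and the TCF12-labelled ones 45.8, 32.3 and 32.5. Every sample of the other 6 groups lay above the parental samples. Cldn4 rose in all 6 comparisons, most in the monomer line (1.10 ± 0.13, edgeR adjusted p 5.37e-06), and least in the uninduced one (0.43 ± 0.14, adjusted p 0.0301). It was also the only member that passed between the induced and the uninduced line, where 1.52% of all genes rose and 0.475% fell. That rise was 0.67 ± 0.13 (adjusted p 0.0067), and without monomer sample 2 it was 0.56 with an adjusted p of 0.0549. In the fit of 20 samples 5 members passed there, 2 higher and 3 lower (3.61% and 2.6% of all genes): Cldn4 and Krt8 rose, and Cldn12, Tjp3 and F11r fell.

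Cldn5, the main claudin of blood vessel endothelium, was raised in the heterodimer groups. It stood at 1.42, 1.84 and 0.908 CPM in parental samples, 1.79, 1.88 and 1.56 in the uninduced line, 1.93, 2.36 and 2.04 in the monomer line and 2.37, 0.898 and 1.24 in the homodimer line. It reached 7.19, 7.59 and 8.70 CPM in the TCF3-labelled libraries, 6.13, 6.84 and 5.78 in the TCF4 line and 8.81, 4.43 and 4.44 in the TCF12-labelled ones. The 9 heterodimer samples and the other 12 samples did not overlap. Against the parental line Cldn5 rose by 2.49 ± 0.30 (edgeR adjusted p 3.86e-06), 2.16 ± 0.31 (5.39e-05) and 2.06 ± 0.31 (7.82e-05) on the log2 scale in the order TCF3, TCF4 and TCF12. The last value was 1.67 without sample 1 of the TCF12-labelled libraries. A direct test of the 3 heterodimer groups against the homodimer line gave 2.15 ± 0.27 (adjusted p 1.36e-05). The 5 endothelial markers Pecam1, Cdh5, Tek, Tie1 and Emcn summed to 12.9 to 13.7 CPM in parental samples, 16.8 to 18.1 in the uninduced line, 16.8 to 22.5 in the monomer line, 12.2 to 15.0 in the homodimer line, 24.4 to 27.7 in the TCF3-labelled libraries, 12.2 to 15.5 in the TCF4 line and 8.08 to 13.6 in the TCF12-labelled ones. Emcn had no count in the parental, uninduced monomer, monomer and TCF4 dimer groups. Their part in the Cldn5 values was not tested.

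The promoters of these neighbours and of Cldn5 are shown because TWIST1 and the EMT repressors bind E-boxes (CANNTG), and that of Rab25 because it is among the members that fell most in the TCF3-labelled libraries. Each window spans the annotated start and the bases before it (RefSeq, GRCm38.p6), 5′ to 3′ on the gene's strand, with E-boxes in capitals.
Cldn3, chr5:134985964-134986263, plus strand: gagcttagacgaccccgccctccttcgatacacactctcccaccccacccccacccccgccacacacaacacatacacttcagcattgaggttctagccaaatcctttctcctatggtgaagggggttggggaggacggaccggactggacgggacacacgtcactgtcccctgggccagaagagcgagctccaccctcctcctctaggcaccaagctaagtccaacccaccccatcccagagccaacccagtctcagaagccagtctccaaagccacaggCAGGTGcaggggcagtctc
Cldn4, chr5:134946885-134947184, minus strand: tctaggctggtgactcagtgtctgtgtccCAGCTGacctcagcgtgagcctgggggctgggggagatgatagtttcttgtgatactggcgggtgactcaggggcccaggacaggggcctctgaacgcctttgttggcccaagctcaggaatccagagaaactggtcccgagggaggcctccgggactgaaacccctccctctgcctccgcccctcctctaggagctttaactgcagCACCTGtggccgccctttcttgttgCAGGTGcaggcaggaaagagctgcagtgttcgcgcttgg
Rab25, chr3:88548230-88548529, minus strand: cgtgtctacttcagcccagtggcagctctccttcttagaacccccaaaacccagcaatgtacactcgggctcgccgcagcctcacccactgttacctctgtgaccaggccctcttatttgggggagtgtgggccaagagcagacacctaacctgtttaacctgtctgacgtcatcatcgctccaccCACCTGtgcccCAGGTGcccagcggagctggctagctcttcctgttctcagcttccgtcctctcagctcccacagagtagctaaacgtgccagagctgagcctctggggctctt
Cldn5, chr16:18776597-18776896, plus strand: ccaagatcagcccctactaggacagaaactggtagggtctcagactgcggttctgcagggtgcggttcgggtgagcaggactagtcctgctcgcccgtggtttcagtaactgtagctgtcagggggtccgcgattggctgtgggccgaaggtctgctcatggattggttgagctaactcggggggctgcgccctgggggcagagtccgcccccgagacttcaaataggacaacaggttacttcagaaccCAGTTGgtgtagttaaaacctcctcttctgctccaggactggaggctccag
The window of Cldn3 held 1 match, CAGGTG, whose first base lay 31 bases after the start. Cldn4, which rose where Cldn3 fell, held 3, of which CACCTG lay 14 bases before and CAGGTG 11 bases after the start. Rab25 held CACCTG 64 bases and CAGGTG 53 bases before the start, and Cldn5 only CAGTTG, which began 1 base before the start.

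Promoter windows were matched for 26 of the 38 members, with 33 annotated starts. CANNTG occurred in 75.8% of these 33 windows and in 72.3% of the 32851 windows of all genes. CACCTG, counted on both strands so that it covers CAGGTG, occurred in 21 of the 33 windows (63.6%), which belong to 17 of the 26 genes, against 20.2% of all windows. All such matches also count as CANNTG. Of the other E-boxes, CAGATG was found in 9.09% of the members' windows and 17.2% of all windows, CAGCTG in 9.09% and 16.3%, and CATATG in 0 of 33 and 3.91%, each on both strands. Windows of the same gene can overlap, and a match of letters is not a bound site.

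Cldn6, a claudin of early embryonic epithelia and the most abundant claudin here, fell in the homodimer line (-0.33 ± 0.09, edgeR adjusted p 0.03), the TCF4 line (-0.36 ± 0.09, adjusted p 0.0127) and the TCF3-labelled libraries (-0.61 ± 0.09). The fall was deepest in the TCF12-labelled libraries (-0.81 ± 0.09, adjusted p 3.21e-06), where it stood at 153, 125 and 141 CPM against 255, 238 and 241 in parental samples. The uninduced and induced monomer lines had 293 ± 13.6 and 264 ± 9.17 CPM, and no fall passed there. The fall in the homodimer line no longer passed (adjusted p 0.061 to 0.119) when any 1 of the 6 samples compared was left out, nor that in the TCF4 line without parental sample 1, TCF4 dimer sample 1 or TCF4 dimer sample 2 (adjusted p 0.0521 to 0.0648). Cldn9, a claudin best known from the inner ear, ends 137 bases from the end of Cldn6 on the opposite strand of chromosome 17. It rose from 0.654, 0.542 and 0.505 CPM in parental samples to 1.51, 1.80 and 1.13 in the homodimer line (1.38 ± 0.27, adjusted p 0.00779) and to 1.57, 1.37 and 1.22 in the TCF4 line (1.27 ± 0.27). Its rise in the TCF12-labelled libraries (1.11 ± 0.28, adjusted p 0.0264) did not pass without sample 1 (adjusted p 0.0685). Its counts were low, from 5 to 20 per sample, and its calls depended on single samples: adjusted p was 0.0853 for the homodimer line without its sample 2, and 0.0611 and 0.0501 for the TCF4 line without parental sample 3 and without its own sample 1.

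Cldn7, a claudin of basolateral membranes that binds EpCAM, fell by 1.16 ± 0.17 in the TCF3-labelled libraries (edgeR adjusted p 3.68e-05), from 78.1, 62.9 and 68.4 CPM in parental samples to 28.9, 36.3 and 28.2. The libraries labelled TCF12 dimer were split, with 69.3 CPM in sample 1 and 36.8 and 40.9 in samples 2 and 3, and the log2 fold change was -0.52 with sample 1 and -0.85 without it. In the monomer line it was -0.49 ± 0.17 (adjusted p 0.0456), with an adjusted p between 0.0503 and 0.177 without any 1 of 15 samples. Cldn12, an atypical claudin, had a narrow range of group means, from 59.1 ± 1.72 CPM in parental samples to 43.7 ± 2.87 in the monomer line. It fell against the parental line in 3 of the doxycycline-treated groups, 1 of them a heterodimer group. Every sample of the other groups lay below the parental samples. Cldn1, a claudin of the skin barrier, was lower only in the uninduced line among the comparisons with the parental line (1.65 ± 0.02 against 2.94 ± 0.66 CPM, -0.82 ± 0.26, adjusted p 0.0291). That fall did not pass without parental sample 1 (adjusted p 0.152) or any 1 sample of the uninduced line (0.0686 to 0.0821).

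**Figure D3:**
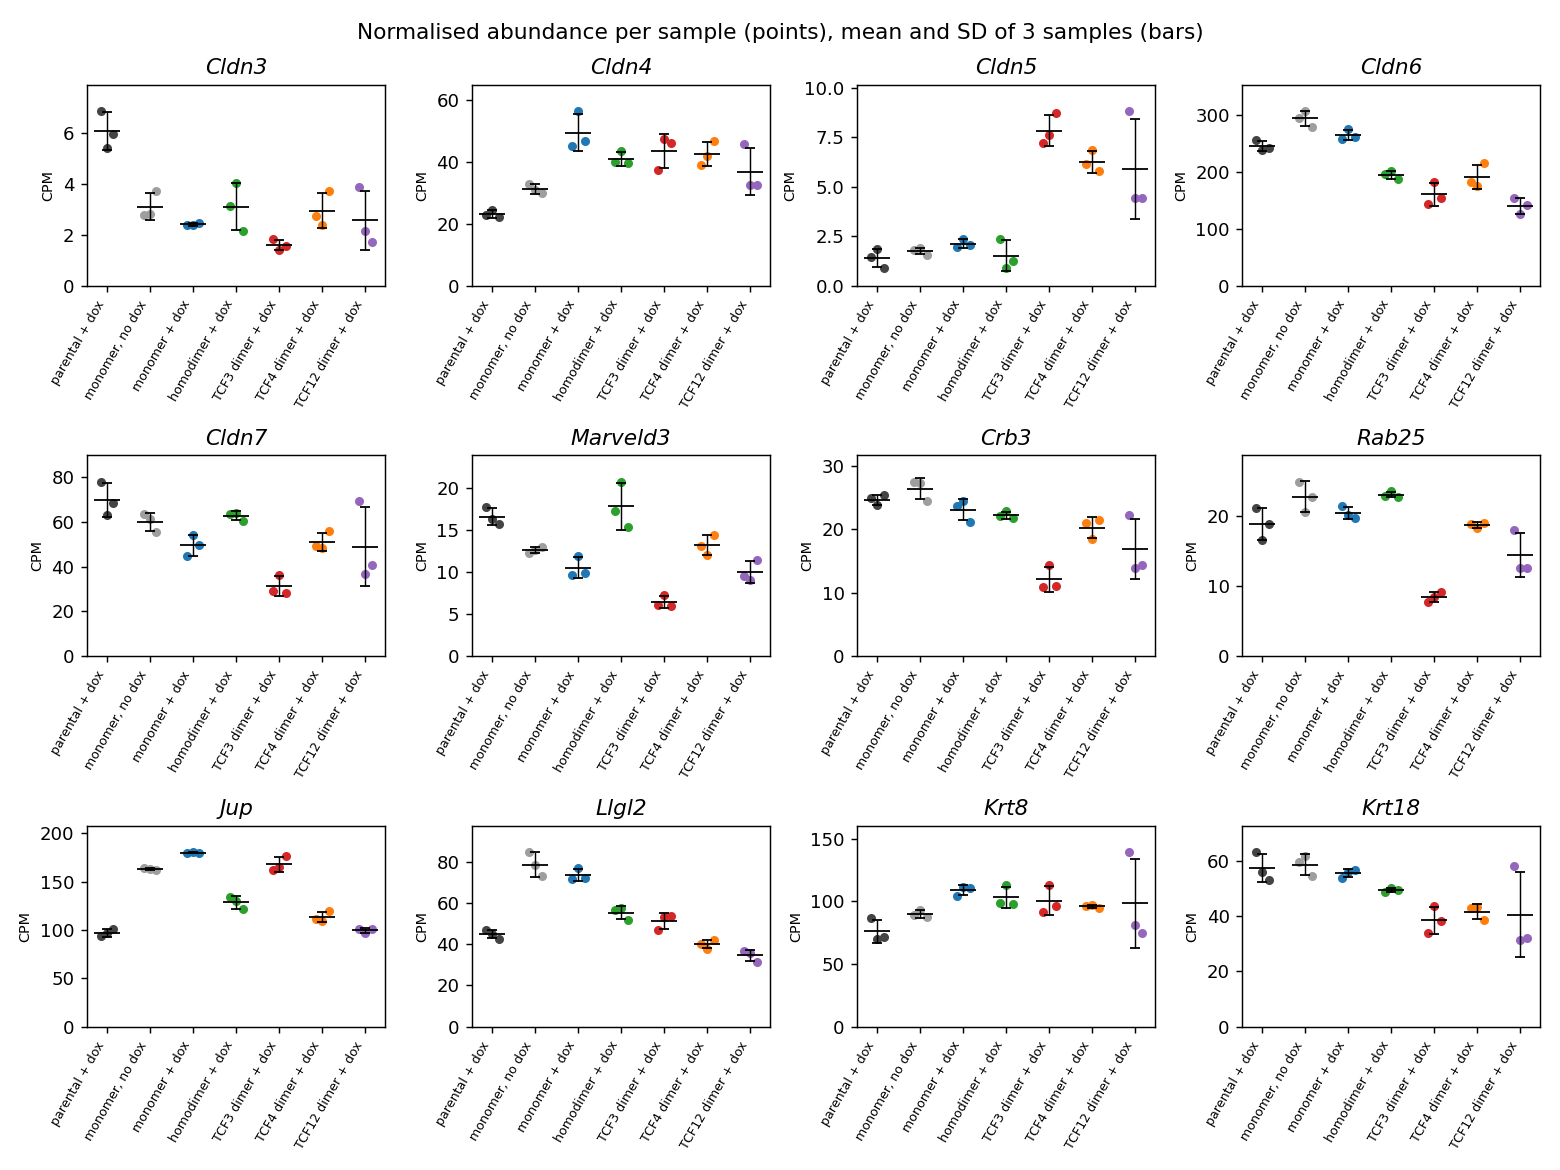
CPM of 12 members in each of the 21 samples (points), with the mean and SD of each group of 3 (bars). Cldn3 and Cldn4 change in opposite directions from the parental line, Cldn5 is raised in the heterodimer groups, and Rab25, Crb3 and Marveld3 are lowest in the TCF3-labelled libraries.

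Of the 7 further tight junction genes, 5 fell in the TCF3-labelled libraries and 6 in the TCF12-labelled ones, and none rose in either. Of all genes, 12% and 11.5% fell there. In the fit of 20 samples these counts were 7 and 6 (22.5% and 14.7% of all genes). In the homodimer and TCF4 dimer lines 0 of the 7 passed, where 8.84% and 12.9% of all genes did. The fit of 20 samples gave 1 higher in the homodimer line and 3 lower in the TCF4 line (10.6% and 13.6% of all genes). Marveld3, a membrane protein related to occludin, stood at 17.7, 16.3 and 15.7 CPM in parental samples and at 17.3, 20.7 and 15.3 in the homodimer line. It was at 6.03, 7.24 and 5.94 CPM in the TCF3-labelled libraries, a fall of 1.37 ± 0.13 (edgeR adjusted p 2.6e-07), 9.55, 9.03 and 11.5 in the TCF12-labelled ones, and 13.1, 12.1 and 14.4 in the TCF4 line. The monomer line had 9.67, 11.9 and 9.89 CPM (-0.66 ± 0.13, adjusted p 0.00109), below the uninduced one at 12.2, 12.7 and 12.99. Between these 2 groups Marveld3 did not pass in either fit. The fall in the uninduced line itself (-0.39 ± 0.13, adjusted p 0.0398) no longer passed (adjusted p 0.06 to 0.136) when any 1 of the 6 samples compared was left out. In the fit of 21 samples Marveld3 was thus lower in both monomer groups and under both labels, and not in the homodimer line. The TCF4 samples also lay below the parental ones, without passing in that fit. The monomer line differed from the homodimer line (0.76 ± 0.13 higher in the homodimer line, adjusted p 0.000277).

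Ocln, the gene of occludin, stood at 24.3, 21.3 and 24.9 CPM in parental samples and at 13.1, 14.5 and 15.2 in the TCF3-labelled libraries. It was at 7.77, 13.7 and 17.7 CPM in the TCF12-labelled ones, a fall of 0.83 ± 0.17 (edgeR adjusted p 0.00171), or of 0.59 without sample 1. Its neighbour Marveld2, the gene of tricellulin at three-cell corners, lies 43.2 kb away on chromosome 13. It was at 23.6 ± 0.97 CPM in the homodimer line, 18.9 ± 0.73 in parental samples, 14.2 ± 1.45 in the TCF3-labelled libraries and 12.2 ± 2.16 in the TCF12-labelled ones. The scaffold genes Tjp3 (ZO-3) and Cgn (cingulin) fell under both labels as well. Tjp3 went from 14.1 ± 1.59 CPM in parental samples to 9.22 ± 1.35 (TCF3) and 8.27 ± 0.34 (TCF12), and Cgn from 79.6 ± 2.37 to 61.9 ± 4.86 and 58.7 ± 15.4. Tjp1, the gene of ZO-1, did not pass in any of the 6 comparisons with the parental line, and fell slightly in 2 of them in the fit of 20 samples (-0.26 in the uninduced line and -0.19 with TCF3). It stood at 204, 230 and 221 CPM in parental samples and at 70.3, 204 and 230 in the TCF12-labelled libraries, so that sample 1 alone was low. F11r, the gene of the junctional adhesion molecule JAM-A, had group means from 86.9 to 118 CPM, the smallest ratio of highest to lowest group mean among these 7 genes (1.36). Epcam itself fell only in the TCF3-labelled libraries among the 6 comparisons with the parental line, from 296, 254 and 265 CPM to 190, 202 and 191. In the fit of 20 samples it also fell in the monomer line and in the TCF12-labelled libraries.

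Of the 6 desmosome genes, 1 rose and 1 fell against the parental line in the TCF3-labelled libraries (16.3% and 12% of all genes). In the TCF12-labelled ones 0 rose and 2 fell (15.5% and 11.5%). The fit of 20 samples gave 3 higher and 2 lower with TCF3 (24.2% and 22.5%). With TCF12 it gave 0 higher and 3 lower (15.8% and 14.7%). Against the monomer line 5 fell and 0 rose in the TCF12-labelled libraries in both fits. Of all genes, 15.5% fell and 18.1% rose there, or 20.2% and 22.4% in the fit of 20 samples. Jup, the gene of plakoglobin, which links desmosomal cadherins to the filaments inside, rose in 5 of the 6 comparisons with the parental line. It stood at 93.4, 96.6 and 101 CPM in parental samples, 164, 163 and 162 in the uninduced line and 180, 181 and 180 in the monomer line. The homodimer line had 134, 130 and 121 CPM, the TCF3-labelled libraries 162, 165 and 177, the TCF4 line 111, 110 and 120, and the TCF12-labelled ones 101, 96.8 and 101. Only the last group overlapped the parental samples. The rises were 0.75 ± 0.06 (edgeR adjusted p 3.68e-08) in the uninduced line, 0.89 ± 0.06 in the monomer line, 0.79 ± 0.06 in the TCF3-labelled libraries, 0.41 ± 0.06 in the homodimer line and 0.22 ± 0.06 in the TCF4 line. With the uninduced line as the control, the sign for the homodimer line turned (-0.34, adjusted p 0.000286).

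The 12 endoderm markers (such as Sox17, Gata4, Gata6, Foxa2 and Dab2) were highest in the same 3 groups as Jup. Their summed level was 572 to 583 CPM in parental samples, 1990 to 2257 in the uninduced line, 1918 to 2092 in the monomer line and 1299 to 1553 in the TCF3-labelled libraries. It was 378 to 420 CPM in the homodimer line, 398 to 441 in the TCF4 line and 336 to 474 in the TCF12-labelled libraries, and none of the 12 was without counts in a group. Of the 11 that were tested, 8 rose in each of the uninduced monomer, monomer and TCF3-labelled groups, where 0, 0 and 2 fell. In the homodimer, TCF4 dimer and TCF12-labelled groups 8 fell, and 0, 0 and 1 rose. Of all genes, 10.5%, 10.8% and 16.3% rose in the former groups and 4.02%, 5.67% and 11.5% fell in the latter. The part of such cells in the values of Jup was not tested. Jup also lies on chromosome 11, as do Krt19, Cldn7 and Llgl2. In the TCF3-labelled libraries the 1114 tested genes of that chromosome had a median log2 difference of 0.20 and 30.2% rose, against 15.4% of genes on the other chromosomes. That part was not tested either.

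Dsp, the gene of desmoplakin, which ties keratin to the desmosome, fell in the homodimer line. It was at 45.1, 60.7 and 52.8 CPM in parental samples and 32.5, 34.1 and 30.4 in the homodimer line (-0.71 ± 0.16, edgeR adjusted p 0.00515). The libraries labelled TCF3 dimer had 70.9, 64.4 and 70.4 CPM, and the 3 heterodimer groups together were 0.75 ± 0.13 higher than the homodimer line (adjusted p 0.000474). Pkp2, a plakophilin of simple epithelia and heart, fell in all heterodimer groups: 62.8 ± 2.71 CPM in parental samples against 44.8 ± 3.99 (TCF3), 50.1 ± 2.51 (TCF4) and 47.9 ± 5.73 (TCF12). Pkp3, another plakophilin, rose from 8.83, 8.67 and 8.98 CPM in parental samples to 14.5, 14.01 and 12.6 in the uninduced line (0.63 ± 0.14, adjusted p 0.00235), and to 11.5, 11.5 and 13.1 in the monomer line. It was at 6.53, 6.16 and 6.63 CPM in the TCF4 line (-0.45 ± 0.14, adjusted p 0.037), a fall that no longer passed (adjusted p 0.0701 to 0.108) when any 1 of the 6 samples compared was left out. The desmosomal cadherin genes Dsg2 and Dsc2 had group means of 32.2 to 56.0 and 12.5 to 17.8 CPM. Dsg2 fell in the TCF12-labelled libraries, with 17.3, 36.5 and 42.7 CPM, by 0.79 ± 0.19, or by 0.50 without sample 1.

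Among the keratins, the partners Krt8 and Krt18 parted. They lie 23.7 kb apart on chromosome 15 and their proteins form filaments together. Krt8 stood at 86.3, 70.0 and 71.2 CPM in parental samples and at 104, 111 and 111 in the monomer line (0.52 ± 0.16, edgeR adjusted p 0.0283). Krt18 stood at 63.3, 56.1 and 53.3 CPM in parental samples and at 33.8, 43.7 and 38.4 in the TCF3-labelled libraries (-0.58 ± 0.17, adjusted p 0.0132). In the TCF12-labelled libraries Krt18 had 58.5 CPM in sample 1 and 31.4 and 32.0 in the others, and Krt8 had 139, 80.7 and 74.9. The ratio of Krt8 to Krt18 per exon length does not depend on library scaling. It was 0.966 ± 0.0437 in parental samples, 1.12 ± 0.0439 in the uninduced line, 1.43 ± 0.0212 in the monomer line and 1.53 ± 0.104 in the homodimer line. The heterodimer groups had 1.91 ± 0.0651 (TCF3), 1.70 ± 0.0946 (TCF4) and 1.78 ± 0.0875 (TCF12), and sample 1 of the TCF12-labelled libraries, at 1.75, lay within its group. No sample of the other 6 groups overlapped the parental ones. The exact two-sided permutation p was 0.1 for each group (n = 3 against 3), which is the smallest that design allows, and 0.1 after adjustment over the 6 tests. Processed copies of both keratins exist elsewhere in the genome, and how reads with several matches were counted is not given in the sources used here, so these values are uncertain.

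Krt19 and Krt7, keratins of simple and ductal epithelia, were scarce, with group means of 4.66 to 9.41 and 1.14 to 3.65 CPM. Krt19 was higher in the monomer line (7.51, 11.3 and 9.46 CPM) than in the homodimer line (3.78, 5.48 and 4.73), by 1.00 ± 0.26 on the log2 scale (edgeR adjusted p 0.00958). This difference did not pass without monomer sample 2 (adjusted p 0.0568) or homodimer sample 1 (adjusted p 0.0501). Krt7 was lower in the heterodimer groups than in the homodimer line (-0.87 ± 0.28, adjusted p 0.0412), and leaving out any of 10 single samples moved its adjusted p above 0.05, to between 0.0505 and 0.196.

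Of the 4 splicing and transcription regulators, which keep the epithelial programme, 2 fell in the TCF3-labelled libraries and 3 in the TCF12-labelled ones. Of all genes 12% and 11.5% fell, in the same order. In the fit of 20 samples it was 3 of 4 in each (22.5% and 14.7% of all genes). Esrp1, which sets epithelial splice forms, stood at 110, 116 and 109 CPM in parental samples, 76.9, 82.4 and 75.9 in the TCF3-labelled libraries and 75.1, 91.7 and 99.6 in the TCF12-labelled ones. It was higher in the homodimer line (132, 121 and 129 CPM) and the TCF4 line (127, 126 and 116), without passing against the parental line in the fit of 21 samples. In the fit of 20 samples both rose (0.19 and 0.14). Its relative Esrp2 rose in the uninduced line (20.9 ± 0.96 against 15.6 ± 2.08 CPM) and fell in the TCF12-labelled libraries (10.9 ± 1.77). Grhl2, a grainyhead factor that activates junction genes, had 63.0 ± 2.52 CPM in parental samples, 48.2 ± 4.69 in the TCF3-labelled libraries and 30.7, 54.5 and 54.4 in the TCF12-labelled ones. Ovol2, a repressor of EMT genes, had group means between 4.48 and 7.40 CPM and passed in none of the 6 comparisons with the parental line, or in 1 in the fit of 20 samples (-0.41 with TCF3). Exons of Ovol2 overlap an antisense transcript over 17.0% of their length, and those of Esrp2 overlap Nfatc3 on the other strand over 5.05%.

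Of the 4 polarity and trafficking genes, 2 fell in the TCF3-labelled libraries (12% of all genes) and all 4 in the TCF12-labelled ones (11.5%). In the fit of 20 samples 3 fell and 1 rose with TCF3 (22.5% and 24.2% of all genes). All 4 fell with TCF12 in that fit too (14.7%). Rab25, a small GTPase of epithelial recycling endosomes, stood at 21.2, 16.6 and 18.8 CPM in parental samples, 24.9, 20.5 and 22.8 in the uninduced line, 21.4, 20.1 and 19.7 in the monomer line and 22.9, 23.5 and 22.7 in the homodimer line. It was at 7.77, 8.39 and 9.11 CPM in the TCF3-labelled libraries, 18.8, 18.3 and 19.0 in the TCF4 line and 18.1, 12.6 and 12.6 in the TCF12-labelled ones. The TCF3-labelled samples lay below all 18 others. Against the monomer line the fall was 1.27 ± 0.13 (edgeR adjusted p 9.49e-07), and the heterodimer groups together were 0.81 ± 0.10 lower than the homodimer line (adjusted p 9.22e-06). Crb3, which sets the apical domain, went the same way, from 24.9, 23.7 and 25.3 CPM in parental samples to 10.8, 14.4 and 11.1 in the TCF3-labelled libraries. The TCF12-labelled values were 22.3, 13.95 and 14.4 CPM, and sample 1 lay close to the parental ones. Pard6b, part of the apical PAR complex, had 42.8 ± 2.31 CPM in parental samples and 23.0, 35.9 and 32.3 in the TCF12-labelled libraries.

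Llgl2, a basolateral polarity gene, was highest in the 2 monomer groups. It stood at 47.0, 44.9 and 42.7 CPM in parental samples, 84.6, 78.2 and 72.8 in the uninduced line, 71.7, 77.1 and 72.0 in the monomer line and 56.6, 57.5 and 51.9 in the homodimer line. It was at 47.0, 53.2 and 53.6 CPM in the TCF3-labelled libraries, 40.0, 37.8 and 41.9 in the TCF4 line and 36.4, 35.9 and 31.2 in the TCF12-labelled ones. Llgl2 thus rose by 0.81 ± 0.08 in the uninduced line (edgeR adjusted p 8.92e-07), by 0.71 ± 0.08 in the monomer line and by 0.30 ± 0.08 in the homodimer line, and fell by 0.38 ± 0.08 in the TCF12-labelled libraries. The endoderm marker sums given beside Jup stand beside this gene too, and their part was not tested.

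The membrane protease matriptase (St14) and its inhibitors HAI-1 (Spint1) and HAI-2 (Spint2) guard epithelial surfaces. St14 had 106, 100 and 105 CPM in parental samples, 70.3, 91.0 and 80.1 in the TCF3-labelled libraries and 79.6, 66.2 and 73.9 in the TCF12-labelled ones, a fall in both. Spint1 rose in the uninduced line (85.0 ± 3.72 against 72.1 ± 4.06 CPM), just inside the threshold (adjusted p 0.05 after rounding), and passed in no other comparison with the parental line in the fit of 21 samples. It also rose in the monomer line in the fit of 20 samples (0.22, edgeR adjusted p 0.00444). Spint2 shows the weight of a single library. It had 136, 129 and 120 CPM in parental samples and 220, 110 and 105 in the TCF12-labelled libraries. Its log2 fold change was 0.17 (adjusted p 0.486) with all samples and -0.26 (adjusted p 0.00178) without sample 1.

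Across the members, sample 1 of the TCF12-labelled libraries lay above samples 2 and 3 for genes of short exon length such as Cldn5, Krt8 and Krt18. It lay below them for genes of long exon length such as Tjp1, Dsg2 and Dsp. Spint2 and Krt7, with 4.56 and 7.05 kb of exon, lay above as well. Exon length merges all annotated transcripts of a gene, so it can exceed the length of the transcript that was expressed. The rank correlation of this difference with exon length was -0.66 over the 37 members, which share the library and its scaling. RNA integrity values are not in the labels, and the source of this pattern was not tested.

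**Figure D4:**
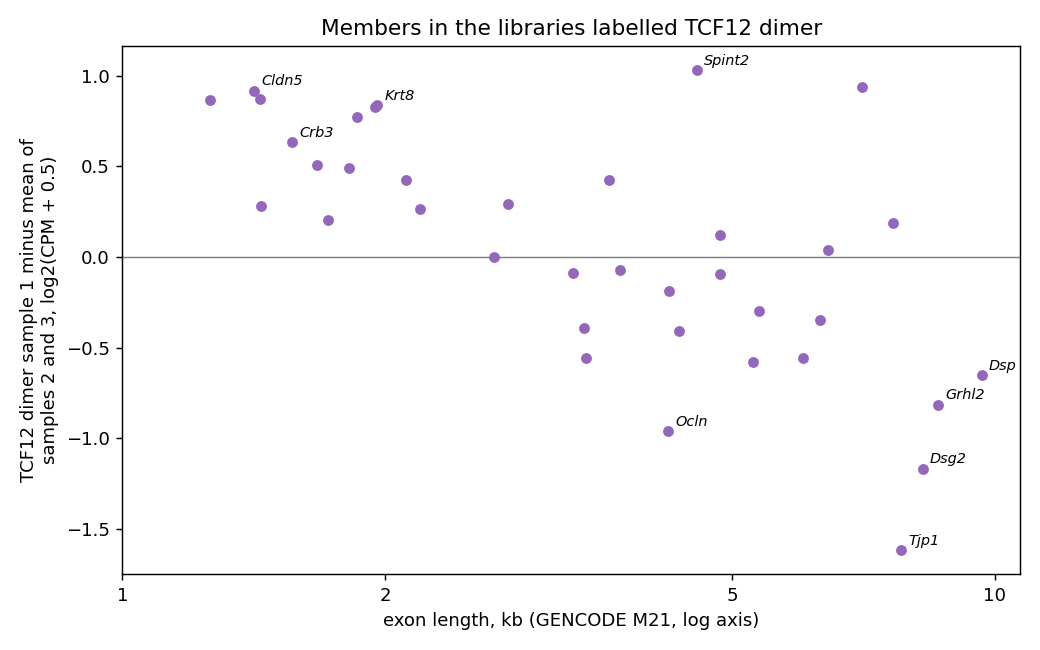
Difference of log2(CPM + 0.5) between sample 1 of the TCF12-labelled libraries and the mean of samples 2 and 3 (vertical axis), by exon length in kilobases on a log axis, for the 37 tested members (points). Members with less than 2 kb of exon lie above 0, and Tjp1, at 7.81 kb, lies lowest.

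Compared directly with the homodimer line, the 3 heterodimer groups together had 16 members lower and 2 higher (6.04% and 7.99% of all genes), and the members' median log2 difference was -0.29 against 0.01 for all genes. In the fit of 20 samples it was 26 lower and 3 higher (14.3% and 14.8%). In a fit of these 4 groups alone it was 9 lower and 2 higher, with 9.05% of all genes passing in either direction. The falls were led by Marveld3 (-0.91 ± 0.10, edgeR adjusted p 3.26e-06), Krt7 and Rab25, and the rises were Cldn5 and Dsp. The heterodimer groups also differed from one another, with 19 members passing (26% of all genes), or 30 in the fit of 20 samples (40.3%) and 12 without TCF4 dimer sample 3. A fit of the 3 heterodimer groups alone left 5 members (6.48% of all genes). The libraries labelled TCF3 dimer had 10 members lower and 2 higher than the TCF4 line (7.9% and 11.8%), and the TCF12-labelled ones 6 lower and 0 higher (1.17% and 2.07%). Without sample 1 of the TCF12-labelled libraries these counts were 22 lower and 3 higher (19.8% and 20.8%), and 17 lower and 0 higher (1.79% and 2.99%). Between the TCF3-labelled and TCF12-labelled libraries, 4 members were higher and 5 lower (9.71% and 9.06%), or 9 and 6 without that sample (12.7% and 12.4%). The members higher with TCF3 in both fits included Jup and Llgl2, and the lower ones Rab25, Marveld3 and Cldn7.

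Against the monomer line, 19 members fell and 2 rose in the TCF3-labelled libraries (9.36% and 12.7% of all genes), and 22 fell and 2 rose in the TCF12-labelled ones (15.5% and 18.1%). In the TCF4 line 7 fell and 3 rose (13% and 14.5%), and in the homodimer line 6 fell and 4 rose (9.31% and 9.15%). Leaving out sample 1 of the TCF12-labelled libraries raised these totals to 25, 27, 21 and 19 members in the same order, while 41.1%, 42.6%, 45.7% and 33.5% of all genes passed. In a fit of the TCF12-labelled libraries and the monomer line alone the count was 10 (10.7% of all genes). In fits of 2 groups alone it was 22 for the TCF4 line (45.2%) and 23 for the homodimer line (34.1%). In the fit of all groups, leaving out homodimer sample 1 lowered the homodimer count from 10 to 6. Llgl2 fell most in the TCF12-labelled libraries (-1.09 ± 0.08, edgeR adjusted p 9.51e-09), Krt19 in the TCF4 line (-0.94 ± 0.25, adjusted p 0.00814, or 0.0525 without monomer sample 2), and Rab25 in the TCF3-labelled ones, as given above.

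Other genes of the same structures were taken from lists of their own. Beside their counts against the parental line, 12% of all genes fell and 16.3% rose with TCF3, and 11.5% and 15.5% with TCF12. In the homodimer line 4.02% of all genes fell and 4.81% rose, and in the TCF4 line 5.67% and 7.18%. Of 12 further tight junction genes, 2 fell and 1 rose in the TCF3-labelled libraries, 4 fell and 0 rose in the TCF12-labelled ones and 1 fell in each of the homodimer and TCF4 dimer lines. Magi2, a scaffold gene, fell in 5 of the 6 comparisons with the parental line, from 6.86 ± 0.92 CPM to 2.41 ± 0.35 in the monomer line. Of 4 further desmosome genes tested, 3 fell in the TCF3-labelled libraries (Perp, Evpl and Ppl). Of 9 adherens junction genes, 2 fell and 1 rose under either label. Cdh1, the gene of E-cadherin, went from 1019 ± 6.25 CPM in parental samples to 731 ± 31.8 in the TCF3-labelled libraries and 810 ± 170.0 in the TCF12-labelled ones, and was at 1056 ± 21.3 in the TCF4 line. Of 12 further polarity genes 1 fell and 2 rose with TCF3, and 1 fell and 1 rose with TCF12. The 4 genes of EMT transcription factors that repress junction genes, Snai1, Snai2, Zeb1 and Zeb2, all rose in each heterodimer group. In the homodimer line 2 of the 4 rose. The monomer line had 2 higher and 1 lower, and the uninduced line 1 higher and 1 lower. Their summed level was 13.5 to 18.2 CPM in parental samples and 15.9 to 16.8 in the homodimer line. It was 12.4 to 12.7 CPM in the monomer line and 9.1 to 11.4 in the uninduced line. It was 73.0 to 119 CPM in the TCF3-labelled libraries, 46.8 to 54.9 in the TCF4 line and 74.4 to 105 in the TCF12-labelled ones. The part of these factors in the members' values was not tested.

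Markers of other cell types varied between the groups beside the members. The 5 pluripotency markers, which day 3 embryoid bodies still carry, summed to 1068 to 1126 CPM in parental samples, 1146 to 1222 in the uninduced line, 1076 to 1191 in the monomer line, 1068 to 1146 in the homodimer line, 762 to 891 in the TCF3-labelled libraries, 854 to 907 in the TCF4 line and 796 to 1035 in the TCF12-labelled ones. Against the parental line, 3 of the 5 rose and 1 fell in each of the uninduced, monomer and homodimer lines. Of all genes, 10.5%, 10.8% and 4.81% rose and 9.43%, 9.22% and 4.02% fell there. The 8 mesoderm markers summed to 14.3 to 15.8 CPM in parental samples, 46.6 to 56.7 in the uninduced line, 47.2 to 51.6 in the monomer line, 11.5 to 11.9 in the homodimer line, 66.1 to 86.1 in the TCF3-labelled libraries, 24.5 to 31.4 in the TCF4 line and 43.2 to 52.2 in the TCF12-labelled ones. Of the 7 mesoderm markers tested, only 2 rose and 0 fell in each of the uninduced and monomer lines (10.5% and 10.8% of all genes rose). Their median log2 difference from the parental line was 0.16 and -0.02 there. The mesoderm markers include Pdgfra, also an endoderm marker, Hand1, also a trophoblast marker, and the EMT factor gene Snai2, so these sums are not independent. The 7 primitive streak markers fell from 213 to 252 CPM in parental samples to 41.5 CPM or less in every sample of the other groups. The 4 epidermal markers stayed at or under 3.86 CPM in all 21 samples, with Krt5 without counts in the parental, uninduced monomer, homodimer and TCF3-labelled groups. The 6 trophoblast markers summed to 5.04 to 24.0 CPM, and the 4 neural markers to 62.2 to 144 CPM. Their part in the members' values was not tested.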

How the data were processed

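RNA-seq was made with an Illumina TruSeq mRNA kit, per the labels' protocols, from 3 samples in each of 7 groups. The deposited values are raw read counts per gene symbol, 1 table per sample. FastQC, TopHat2, HTSeq and the build mm10 (GRCm38) are named in the submitters' processing notes, without versions; the annotation and the strand setting are not given in the sources used here. Among the March and Sept gene symbols, 25 had become dates in 18 of the 21 tables, and not in the 3 labelled TCF12 dimer, so tables were joined by position.

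Counts were fitted with edgeR 4.0.16 (R 4.3.3): all 21 samples, 1 mean per group, TMM factors, filterByExpr (count 10, total 15), the quasi-likelihood F-test and Benjamini-Hochberg adjustment over 14311 genes. Standard errors come from the F statistic. The code was tested on simulated data for the homodimer line against the parental line. It recovered 28.1% of log2 changes of 0.5, 65.2% of 1 and 96.9% of 2, with 3 false calls. A change of 1 or less can thus fail to pass, and changes of 0.5 failed more often than changes of 1. A floor of 3 counts equals 0.182 to 0.488 CPM and covers counting error only. Overlapping genes and antisense partners may share reads. Exon lengths and positions are from GENCODE M21 and promoters from RefSeq. The exon length of a gene is the merged length of the exons of all its annotated transcripts. Alternatives were other filters, library size only, RLE factors, DESeq2 1.42.0, only the groups compared, a replicate block, the uninduced monomer line as control, and leaving out each sample.

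The members and gene lists were chosen with earlier results of these data known. Full statistics are given for at most 3 rising and 3 falling members per comparison, those with the largest passing change, and for members contrasted in the text.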

Additional observations from a re-analysis of the deposited data

Results flagged for a closer look

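In 7 cases, over 4 members and 5 pairs of groups, a member passed in opposite directions against the parental line and also differed when the 2 groups were tested directly (edgeR, Benjamini-Hochberg adjusted p). Llgl2 was lower in the TCF12-labelled libraries than in the uninduced monomer line by -1.19 ± 0.08 (log2 ± SE, adjusted p 2.16e-09), than in the monomer line by -1.09 ± 0.08 (9.51e-09) and than in the homodimer line by -0.68 ± 0.08 (1.52e-05). Pkp3 was lower in the TCF4 dimer line than in the uninduced monomer line by -1.08 ± 0.13 (4.36e-06) and than in the monomer line by -0.90 ± 0.14 (5.14e-05). In the TCF12-labelled libraries, Esrp2 was lower than in the uninduced monomer line by -0.93 ± 0.12 (5.87e-06) and F11r by -0.44 ± 0.07 (6.05e-05). All 3 samples of the first group lay below all 3 of the second in each of the 7 cases. Single samples within the groups of 3 were not tested as outliers.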

How the results depend on the processing

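Of 1816 alternative fits of 64 member results, 1686 kept the direction and the side of the threshold, 129 lost the threshold (in 27 results) and 1 reversed: Jup in the homodimer line, -0.34 with the uninduced monomer line as control. Counts of passing members stayed within 1.5 times under DESeq2, RLE factors, library size only and the 1 CPM filter. Without a filter the uninduced monomer line had 5 members passing in place of 11, and 8.97% of all genes in place of 19.9%. Fits of only the groups compared gave, against the parental line, 22 for the uninduced monomer line, 17 for monomer (9 with all samples), 17 for homodimer (8), 19 for TCF4 (8) and 4 for TCF12 (23), while 35.6%, 36.2%, 22.2%, 28.6% and 5.68% of all genes passed. They gave 5 for monomer against uninduced (1), 23 for homodimer against monomer (10), 22 for TCF4 against monomer (10), 10 for TCF12 against monomer (24), 11 for heterodimers against homodimer (18) and 5 among heterodimers (19), with 4.95%, 34.1%, 45.2%, 10.7%, 9.05% and 6.48% of all genes. The uninduced line as control gave 14 for homodimer (4 higher, 10 lower) and 17 for TCF4 (5 higher, 12 lower), in place of 4 and 4 in each. The fits of only the groups compared hold fewer samples, while the uninduced control was read from the fit of all samples. Counts were higher in the fits that left out the TCF12-labelled libraries and lower in those that held them. The cause of these moves was not tested. Library size only changed the split of passing members, higher and lower. Against the parental line it went from 7 and 4 to 4 and 4 (uninduced) and 5 and 4 to 5 and 5 (monomer). It went from 4 and 4 to 5 and 3 (homodimer), and 3 and 17 to 4 and 14 (TCF3). For TCF4 it went from 4 and 4 to 4 and 5, and for TCF12 from 3 and 20 to 3 and 21. Then 19.7%, 19.1%, 8.01%, 26.9%, 11.6% and 24.9% of all genes passed. Against the monomer line it went from 4 and 6 to 3 and 6 (homodimer) and 2 and 19 to 2 and 16 (TCF3). For TCF4 it went from 3 and 7 to 5 and 7, and for TCF12 from 2 and 22 to 1 and 22. There 18%, 20.7%, 26.8% and 31.2% passed.

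Leaving out 1 sample at a time gave 31 to 37 members for any difference, 4 to 24 for uninduced against parental, 6 to 17 for monomer, 4 to 14 for homodimer, 16 to 31 for TCF3, 4 to 20 for TCF4 and 18 to 25 for TCF12. It gave 0 to 5 for monomer against uninduced, 6 to 19, 16 to 25, 8 to 21 and 18 to 27 for homodimer, TCF3, TCF4 and TCF12 against monomer, 12 to 29 for heterodimers against homodimer and 12 to 30 among heterodimers. The highest count in each range came without sample 1 of the TCF12-labelled libraries. Without that sample 73.6%, 37%, 35.3%, 20.5%, 46.6%, 28.2% and 30.5% of all genes passed, in the order from any difference to TCF12. For the remaining ranges it was 6.21%, 33.5%, 41.1%, 45.7%, 42.6%, 29.1% and 40.3%. All 21 samples gave 50.7% for any difference and 19.9% for uninduced against parental. Shares of all genes at the low ends are not given here. Replicate numbers do not pair the samples: deviations of same-numbered samples had a mean correlation of 0.0214 (63 pairs, -0.221 to 0.344), against -0.0102 for 126 others. With the replicate block 20 members passed for TCF3, 25 for TCF12, 10 for uninduced, 8 for monomer, 8 for homodimer, 8 for TCF4 and 15 for heterodimers against homodimer. Of all genes, 28.6%, 26.9%, 19.9%, 20%, 8.82%, 12.8% and 13.8% passed, in the same order. At 5 to 20 counts per sample, Cldn9 is limited by depth.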

Other observations

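Epithelial genes outside the junctions also differed between the groups. The zinc-finger factors Klf4 and Klf5, which act in stem cells and epithelia, rose in the uninduced monomer line (19.2 ± 2.59 CPM against 5.73 ± 1.16 in the parental line for Klf4, 57.4 ± 2.76 against 20.4 ± 0.75 for Klf5). Both also rose in the monomer line (15.3 ± 1.20 and 55.0 ± 1.76 CPM) and in the TCF3-labelled libraries (11.4 ± 1.53 and 31.2 ± 5.26), and fell in the TCF12-labelled ones (3.86 ± 0.41 and 9.39 ± 4.61). Of 6 tested genes in that list, 5 rose in the uninduced monomer line and 4 fell in the TCF12-labelled libraries. Of all genes, 10.5% rose and 11.5% fell, in the same order. The membrane protease gene Tmprss2 fell in the homodimer line (4.36 ± 0.43 CPM), the TCF4 dimer line (3.97 ± 0.78) and the TCF12-labelled libraries (3.11 ± 0.34), from 8.56 ± 0.44 in the parental line.

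Claudins outside the members were near absent: 13 further claudin genes summed to 0.872 to 2.81 CPM per sample, and 0 of the 13 passed the filter on low counts. Of 12 further keratin genes 3 passed that filter, and the 12 summed to 4.32 to 9.57 CPM per sample.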
